A study of Mus musculus with 8 samples.

Results

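The 10 genes described here are members of the Bcl2 family and of the Tnfsf10 (TRAIL) pathway, which control apoptosis: the antiapoptotic Bcl2, Bcl2l1 and Mcl1, the effectors Bax and Bak1, the BH3-only genes Bbc3, Pmaip1 and Bid, the death ligand Tnfsf10 and its receptor Tnfrsf10b. They were chosen by symbol among the 25485 genes of the authors' normalized table and joined by Ensembl identifier to the raw count table of 53801 genes, and all 10 were found in both tables. The study sequenced messenger RNA of sorted Lgr5-GFP+ EpCAM+ intestinal stem cells of 8 mice, with 1 library per mouse, to compare stem cells that lack the histone methyltransferase Mll1 (Kmt2a) with cells that keep 1 allele. 4 mice were labelled β-catGOF; Mll1-/- and 4 were labelled β-catGOF; Mll1+/-. Mice of either genotype thus carry the allele for a stabilised form of β-catenin. Neither wild-type mice nor Mll1-/- mice without β-catGOF are part of the comparison. Recombination was driven by CreERT2 from the Lgr5-EGFP-IRES-CreERT2 allele, thus in Lgr5+ cells and their progeny, by tamoxifen at 50 mg/kg on 3 consecutive days at 4 to 6 weeks of age, and cells were taken on day 10. The study reports non-recombined crypts beside Mll1-depleted ones in β-catGOF; Mll1-/- mice, so a library may hold cells of both kinds. The share of recombined cells in each library was not measured here. The labels do not give the sex of the mice.

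Apoptosis by the intrinsic route is decided at the outer mitochondrial membrane, where Bax and Bak1 form pores, the antiapoptotic proteins hold them in check, and BH3-only proteins either block the antiapoptotic proteins or activate the effectors. In the extrinsic route a death ligand such as Tnfsf10 clusters a death receptor and activates Casp8, which can cut Bid and so connect the routes. Intestinal crypt stem cells are known for their sensitivity to DNA damage, in which Bbc3, a p53 target, has a known part.

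The libraries held 14468751 to 16847793 counts on genes, and each of the 10 genes passed the filter on low counts. Lgr5, Ascl2, Smoc2, Olfm4 and Epcam, which mark crypt stem cells or epithelium, were detected in every library (lowest value 51.5 CPM, of Ascl2), whereas Ptprc, Cd3e and Col1a1 were below 1 CPM in every library and Pecam1 was between 3.95 and 5.91 CPM. Other leukocyte and stroma markers were higher, with Gzma up to 9.15 CPM, Cd68 between 1.89 and 9.62 CPM, Lyz2 up to 5.94 CPM, Itgam up to 3.24 CPM and Vim between 44.3 and 116 CPM in Mll1-/-. CPM give a gene's counts as a share of its scaled library total. Kmt2a, the targeted gene, was between 53.5 and 78.5 CPM in the libraries labelled Mll1-/- and between 48.9 and 64.9 CPM in those labelled Mll1+/-, and since whole-gene counts do not separate the deleted exons from the rest, they do not check the labels. Mll1-/- replicate 3 stood apart from the other libraries: its highest Spearman correlation with another library was 0.909 over the genes tested, against 0.947 to 0.966 for the other 7.

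None of the 10 genes differed between the genotypes at an adjusted p under 0.1 (edgeR's quasi-likelihood test, 0 of 10), where 0.0851% of the 16445 genes tested were called (14 genes). At an unadjusted p under 0.05 the count was 1 of 10, against 9.15% of all genes tested, and the ranges of the genotypes were separate in 1 of 10, against 6.28% of all genes tested. This 1 gene was Tnfsf10 in either count. DESeq2 without a prior called 1 of 10, again Tnfsf10, against 2.74% of the 14817 genes to which it gave an adjusted p. With limma-voom 0 of 10 were called, against 0.626% of all genes tested, and 1 of 10 had an unadjusted p under 0.05, against 10.7%. In the edgeR fit 6 of the 10 genes had a log2 fold change above 0 and 4 below 0, with a median of 0.15, beside a median of 0.01 over all genes tested.

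**Figure D1:**
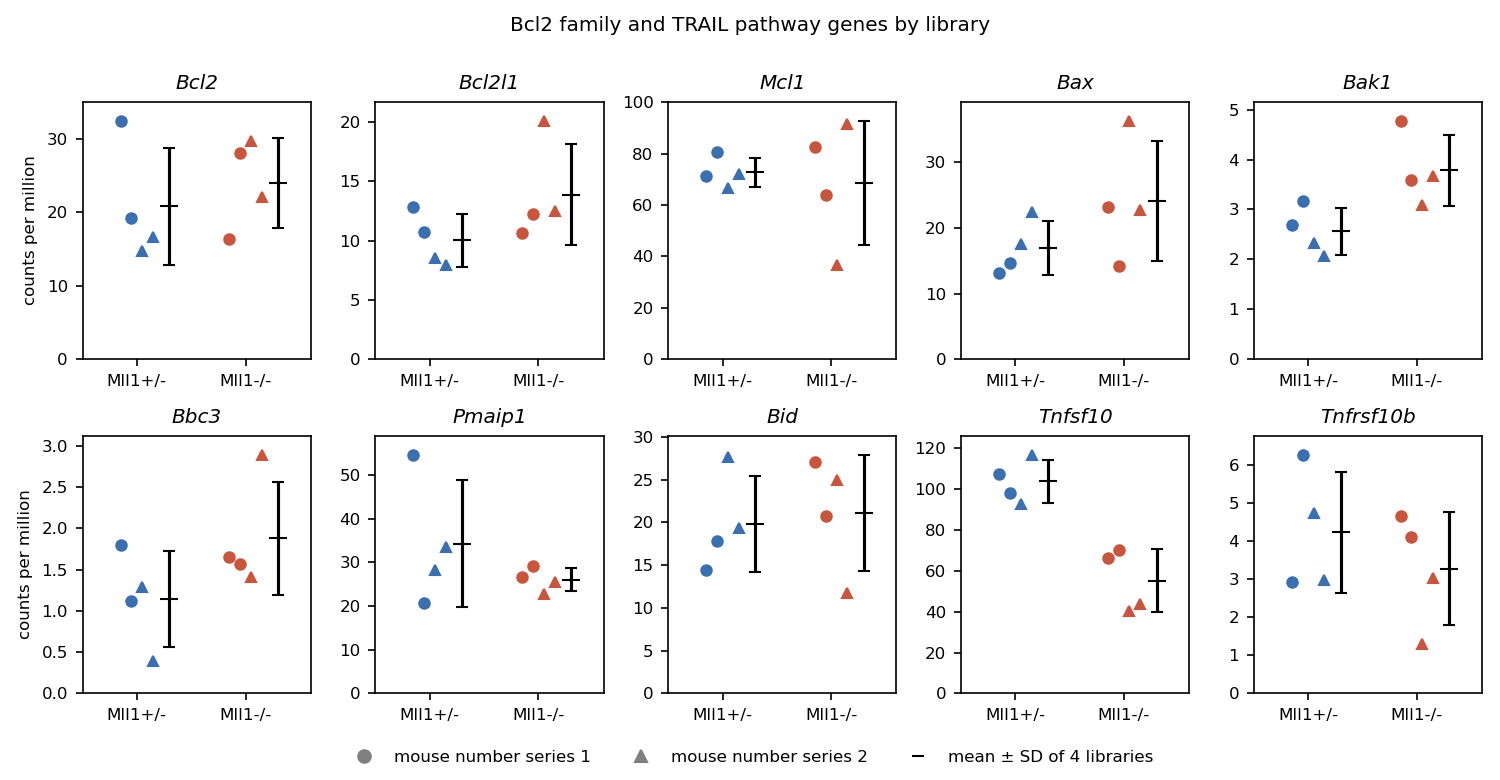
CPM (y axes from 0) of the 10 genes in each of the 4 Mll1+/- (blue) and 4 Mll1-/- (red) libraries; circles and triangles are mice of the lower and higher animal numbers, and black bars are the mean ± SD. Tnfsf10 is the gene whose genotypes do not overlap, with 40.2 to 70.3 CPM in Mll1-/- and 92.4 to 117 CPM in Mll1+/-.

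Tnfsf10 encodes TRAIL, the ligand that starts the extrinsic route, and lies on chromosome 3 of mm10 from 27317028 to 27342427 on the plus strand (ENSMUSG00000039304). In Mll1-/- replicates 1 to 4 it was at 66.1, 70.3, 40.2 and 43.5 CPM. In Mll1+/- replicates 1 to 4 it was at 107, 98.2, 92.4 and 117 CPM. Every Mll1-/- library was thus below every Mll1+/- library, and the 2 lowest values were those of Mll1-/- replicates 3 and 4. The means were 55.0 ± 15.4 CPM and 104 ± 10.6 CPM (SD, n = 4 each), 1.88-fold higher in Mll1+/-. This was a log2 fold change of -0.91 (SE 0.20) with an unadjusted p of 0.00133, rank 107 among the genes tested, and the edgeR adjusted p was 0.205, so the difference did not pass the threshold.

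The mice carry animal numbers in 2 ranges, with 2 mice of each genotype in either range. Within the range of the lower numbers the mean log2 CPM of Tnfsf10 differed by -0.59 (Mll1-/- minus Mll1+/-), and within that of the higher numbers by -1.31. Whether Tnfsf10 was called depended on the test, since the adjusted p was 0.00401 by DESeq2, 0.117 by limma-voom with quality weights and 0.125 when the test was limited to genes with 10 or more counts in each library. Without any 1 library the edgeR log2 fold change lay between -1.05 and -0.79 and the adjusted p between 0.177 and 0.483. The smaller change of -0.79 was that without Mll1-/- replicate 3.

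**Figure D2:**
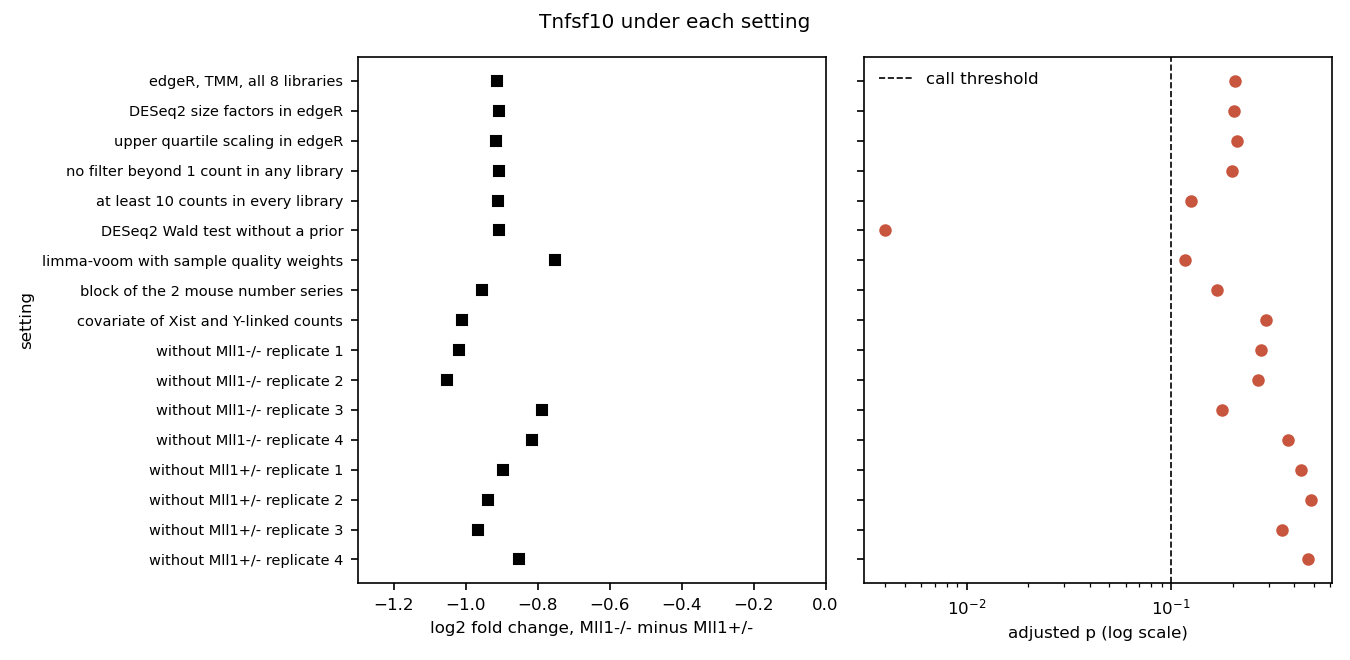
Tnfsf10 under each of the 17 settings: on the left the log2 fold change (Mll1-/- minus Mll1+/-) and on the right the adjusted p on a log axis, with the threshold of 0.1 as a dashed line. The log2 fold change is between -1.05 and -0.75 in every setting shown, and the adjusted p is under 0.1 in the DESeq2 fit alone.

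The sequence before the Tnfsf10 start is shown because Tnfsf10 was the gene without overlap and because the mice carry stabilised β-catenin, whose partners of the TCF family bind sites with the core CTTTGT or CTTTGA. It is the plus strand of GRCm38.p6, chr3:27316827-27317027, from the RefSeq promoter table (8 of the 10 genes had an entry) and ends before the Ensembl start of the gene, with matches to CTTTGT in capitals.
Tnfsf10: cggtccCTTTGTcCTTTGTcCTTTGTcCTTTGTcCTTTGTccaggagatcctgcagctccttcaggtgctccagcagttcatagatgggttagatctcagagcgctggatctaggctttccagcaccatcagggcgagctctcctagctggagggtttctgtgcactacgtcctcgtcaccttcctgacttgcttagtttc
The 5 matches are units of 1 short tandem repeat, from 244 to 211 bases upstream of the RefSeq start, and each is followed by a C. Only the core letters were searched, not the bases around them. On either strand at least 1 CTTTGT was found in 18.7% of the 32851 promoters of 300 bases in that table, and at least 5 in 3 promoters (0.0091%). The whole promoter of 300 bases, which runs past the end of the stretch shown, held 2 matches to AANNGAAA, the core letters of interferon regulatory factor sites, at 53 to 46 and at 30 to 23 bases upstream of the RefSeq start. The first is cut by the end of that stretch and the other lies beyond it, and 5.34% of the promoters held at least 2. These motifs were searched after Tnfsf10 had been singled out, a match is not a binding site, and the expression data do not measure binding.

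Tnfrsf10b, the death receptor of Tnfsf10 (chromosome 14, 69767472 to 69784411), was a low gene. It was at 4.66, 4.11, 1.30 and 3.02 CPM in Mll1-/- replicates 1 to 4 and at 2.93, 6.26, 4.73 and 2.97 CPM in Mll1+/- replicates 1 to 4, without a separation of the genotypes. Its log2 fold change was -0.37 (SE 0.46) with an edgeR adjusted p of 0.857, on 24 to 89 counts per library. It was -0.10 without Mll1-/- replicate 3, -0.11 without Mll1+/- replicate 2 and -0.08 by limma-voom. Of its 31-base words, 11.1% also occur in transcripts of other genes, mainly Gm15574, so part of its reads may have been left out.

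Among the antiapoptotic genes, Bcl2, the founder of the family (chromosome 1, 106538178 to 106714274), was at 16.3, 28.0, 29.6 and 22 CPM in Mll1-/- replicates 1 to 4. In Mll1+/- replicates 1 to 4 it was at 32.4, 19.3, 14.8 and 16.7 CPM. The highest value of all 8 libraries was in Mll1+/- replicate 1, and the ranges overlapped. For Bcl2 the log2 fold change was 0.21 (SE 0.30) with an edgeR adjusted p of 0.880, and it was between 0.07 (without Mll1+/- replicate 3) and 0.50 (without Mll1+/- replicate 1) when 1 library was left out. The mean difference was -0.22 among mice of the lower numbers and 0.70 among those of the higher numbers, thus of opposite sign.

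Bcl2l1, which encodes Bcl-xL (chromosome 2, 152780668 to 152831728), was at 10.6, 12.3, 20.1 and 12.5 CPM in Mll1-/- and at 12.9, 10.8, 8.5 and 7.94 CPM in Mll1+/-, in the order of the replicates. Mll1-/- replicate 3 was the highest, and the other 3 Mll1-/- libraries lay within the Mll1+/- range. The log2 fold change was 0.47 (SE 0.28, edgeR adjusted p 0.655), and without Mll1-/- replicate 3 it was 0.23. Mcl1, a short-lived antiapoptotic protein (chromosome 3, 95658788 to 95663176), was at 82.6, 63.9, 36.8 and 91.4 CPM in Mll1-/- and at 71.2, 80.6, 66.7 and 72.2 CPM in Mll1+/-. The Mll1+/- libraries were close together (72.7 ± 5.81 CPM, SD, n = 4) and the Mll1-/- libraries were spread around them (68.7 ± 24.1 CPM, n = 4), with replicate 3 the lowest. Its log2 fold change was -0.08 (SE 0.25, edgeR adjusted p 0.952), and it was 0.12 without Mll1-/- replicate 3.

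The effectors Bax and Bak1, whose products permeabilise the mitochondrial membrane, had higher means in Mll1-/- without passing the test. Bax (chromosome 7, 45461697 to 45466898) was at 23.2, 14.1, 36.3 and 22.8 CPM in Mll1-/- replicates 1 to 4 and at 13.1, 14.6, 17.6 and 22.4 CPM in Mll1+/- replicates 1 to 4. Mll1-/- replicates 1, 3 and 4 were above all Mll1+/- libraries and replicate 2 was among them. For Bax it amounted to a log2 fold change of 0.51 (SE 0.30, edgeR adjusted p 0.655), and without Mll1-/- replicate 3 it was 0.24.

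Bak1 (chromosome 17, 27019810 to 27029009) was at 4.78, 3.59, 3.08 and 3.68 CPM in Mll1-/- and at 2.69, 3.16, 2.33 and 2.07 CPM in Mll1+/-. Mll1-/- replicate 3 lay just below Mll1+/- replicate 2, and apart from this pair the genotypes did not overlap. Bak1 had a log2 fold change of 0.56 (SE 0.33, edgeR adjusted p 0.655), on 29 to 81 counts per library, and the differences were 0.49 and 0.59 within the lower and the higher animal numbers. Of the exonic bases, 25.5% of Bak1 overlap Ggnbp1 and 12.2% of Bax overlap Gm45808. Reads that overlapped more than 1 gene were not counted, so the levels of both effectors are lower limits.

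The BH3-only genes had no common direction. Bbc3, which encodes Puma (chromosome 7, 16308393 to 16318205), was at 1.65, 1.56, 1.41 and 2.89 CPM in Mll1-/- and at 1.80, 1.12, 1.28 and 0.387 CPM in Mll1+/-, on 6 to 44 counts per library. The highest library was Mll1-/- replicate 4 and the lowest Mll1+/- replicate 4, with the other 6 between 1.12 and 1.80 CPM. The log2 fold change of 0.70 was the largest above 0 among the 10 genes, but so was its SE of 0.55 (edgeR adjusted p 0.743).

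Pmaip1, which encodes Noxa (chromosome 18, 66458604 to 66465550), was at 26.6, 29.2, 22.8 and 25.5 CPM in Mll1-/- and at 54.6, 20.7, 28.3 and 33.5 CPM in Mll1+/-. The Mll1-/- libraries lay close together, and the higher Mll1+/- mean came mostly from replicate 1. The log2 fold change was -0.40 (SE 0.28, edgeR adjusted p 0.719), and it was -0.08 without Mll1+/- replicate 1. Bid, which Casp8 cuts (chromosome 6, 120891930 to 120916853), was at 27.0, 20.7, 24.9 and 11.7 CPM in Mll1-/- and at 14.4, 17.9, 27.7 and 19.3 CPM in Mll1+/-. Its libraries overlapped almost fully, with a log2 fold change of 0.09 (SE 0.30, edgeR adjusted p 0.955) and differences of 0.56 and -0.43 within the lower and the higher animal numbers. Of the exonic bases of Bid, 17.7% overlap Bcl2l13.

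**Figure D3:**
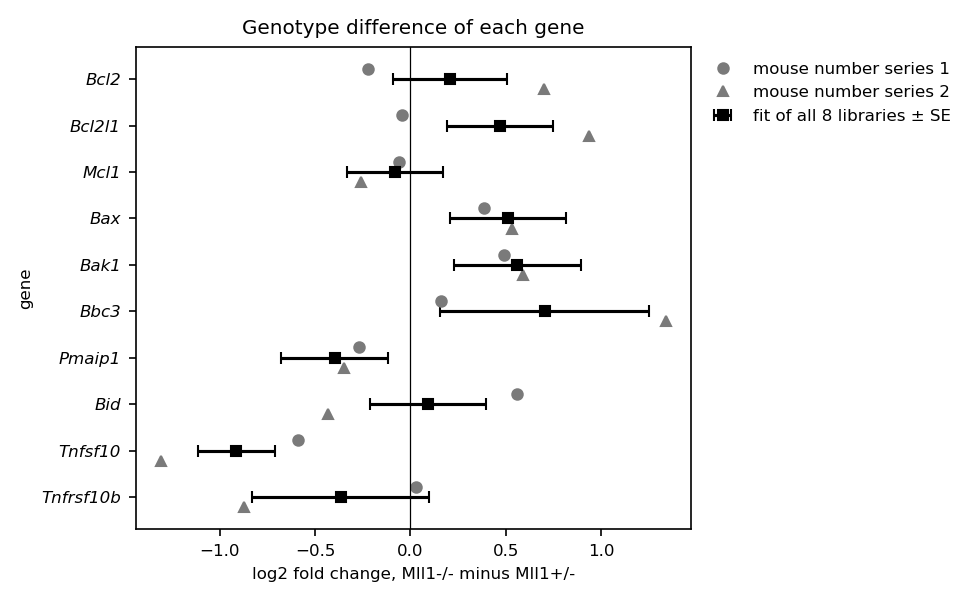
Log2 fold change (Mll1-/- minus Mll1+/-, x axis) of each gene in the edgeR fit of all 8 libraries (squares, bars ± SE), with the difference of mean log2 CPM within mice of the lower (circles) and higher (triangles) animal numbers. Tnfsf10 is at -0.91 and below 0 within either range, whereas Bcl2, Bcl2l1, Bid and Tnfrsf10b change sign between the ranges.

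Levels were compared between genes as CPM per kilobase of exonic length. Mcl1 was the highest of the 10 in Mll1+/- (21.3 ± 1.70 CPM per kilobase, SD, n = 4), followed by Tnfsf10 (19.7 ± 2.02), Pmaip1 (12.9 ± 5.49), Bax (10.7 ± 2.60), Bid (5.58 ± 1.58), Bcl2 (2.27 ± 0.872), Bcl2l1 (2.18 ± 0.492), Bak1 (1.06 ± 0.198), Tnfrsf10b (0.775 ± 0.293) and Bbc3 (0.540 ± 0.274). The ranges of neighbours were separate between Bax and Bid, Bid and Bcl2, and Bcl2l1 and Bak1, and they overlapped for the other 6 pairs. Mcl1 was thus the most abundant antiapoptotic transcript in 8 of 8 libraries, and Bid held the fifth place in each of them.

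In Mll1-/- the first places were taken by Mcl1 (20.1 ± 7.06 CPM per kilobase), Bax (15.3 ± 5.81) and Tnfsf10 (10.5 ± 2.92). Tnfsf10 moved from the second place of the mean to the third, and Bax from the fourth to the second. Among all genes tested, Mcl1 was above 83.8% in its mean level per kilobase, Tnfsf10 above 79.1%, Bax above 76.8% and Tnfrsf10b above 13.8%. The ligand was therefore among the more abundant transcripts of these cells while its receptor was among the less abundant ones.

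**Figure D4:**
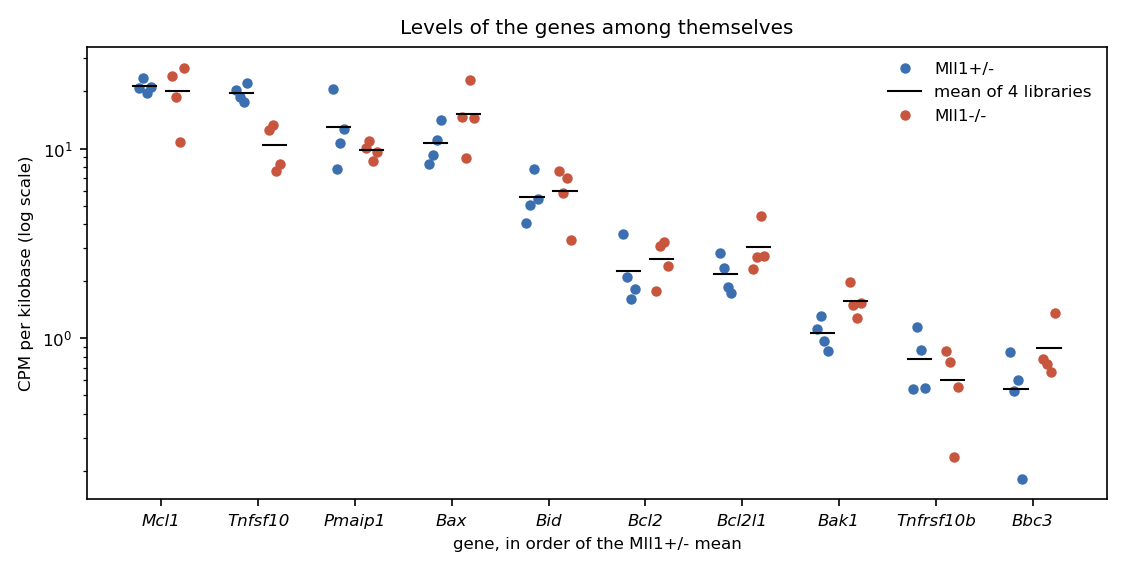
CPM per kilobase of exonic length (log axis) of the 10 genes in each library, ordered by the Mll1+/- mean (blue, Mll1+/-; red, Mll1-/-; black lines, means of 4 libraries). Mcl1 and Tnfsf10 lie near 20 in Mll1+/-, and Tnfrsf10b and Bbc3 lie below 1.4 in every library.

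Ratios within a library do not depend on its scaling and are given without a test. The log2 ratio of Bax to Mcl1, per kilobase, was -0.72, -1.06, 1.10 and -0.89 in Mll1-/- replicates 1 to 4 and between -1.35 and -0.57 in Mll1+/-. Only Mll1-/- replicate 3 held more Bax than Mcl1. The summed level of Bax and Bak1 over that of Bcl2, Bcl2l1 and Mcl1 was 0.591, 0.428, 1.32 and 0.502 in Mll1-/- and between 0.347 and 0.611 in Mll1+/-, so 3 of the 4 Mll1-/- libraries lay within the Mll1+/- range. The log2 ratio of Bax to Bcl2 differed by 0.22 and that of Bax to Bcl2l1 by 0.01 between the genotype means, less than the SD within either genotype (0.39 to 0.79).

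The other genes of the pathways were described by lists. The lists, as the 10 genes, were chosen with earlier results of these data known. No gene of the lists for apoptosis, p53, stress or interferon genes passed an adjusted p under 0.1 in the edgeR fit. Among 11 tested of 17 other Bcl2 family genes, 7 had a log2 fold change above 0 (median 0.24), and 1 had an unadjusted p under 0.05: Bok, a Bax-like effector, which was at 29.1 ± 4.28 CPM in Mll1-/- and 16.3 ± 5.04 CPM in Mll1+/- (n = 4 each) without overlap, with a log2 fold change of 0.84 (SE 0.27, edgeR adjusted p 0.417). Bcl2l12 was at 0.61 and Bad, a BH3-only gene, at 0.68 on the log2 scale, the latter on 43.0 CPM in Mll1-/- replicate 3 against at most 14.1 CPM in the other 3. Bnip3l and Bcl2l14, the most abundant of the list, were at 0.21 and -0.20. Bcl2a1a and Bcl2l10 had no count in any library.

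In the death receptor list, 11 of 15 tested genes were above 0 (18 listed, median 0.46), where 8350 of all 16445 genes tested were. Within the lower animal numbers 7 of the 15 were above 0 (median difference -0.02), and within the higher numbers 8 were (median 0.38). The median of the fit was 0.14 without Mll1-/- replicate 2 and 0.17 without Mll1-/- replicate 3. Ripk3, the kinase of necroptosis, was at 37.7 ± 5.69 CPM in Mll1-/- and at 24.8 ± 4.45 CPM in Mll1+/- without overlap (log2 fold change 0.60, SE 0.19, edgeR adjusted p 0.421), and it was the gene of the list with an unadjusted p under 0.05. The receptor Tnfrsf1a, the adaptor Fadd and the inhibitor Cflar were at 0.57, 0.49 and 0.34, and Casp8, the initiator caspase, was at -0.19, all with adjusted p of 0.627 or above.

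Of the caspases and apoptosome genes (14 of 14 tested, median 0.05), 7 were above and 7 below 0. Casp6, an executioner caspase, had the smallest p of the list: it was at 154 ± 50.3 CPM in Mll1-/- and 290 ± 70.0 CPM in Mll1+/-, a log2 fold change of -0.91 (SE 0.25, edgeR adjusted p 0.333), close in size to that of Tnfsf10. The genotypes overlapped by Mll1-/- replicate 3 (222 CPM) and Mll1+/- replicate 2 (217 CPM). Cycs, Apaf1, Diablo and Vdac2, of the mitochondrial step, were at -0.37, 0.40, 0.54 and -0.16. Among the inhibitors of apoptosis (9 tested of 10, median 0.04), none had an unadjusted p under 0.05, and Naip1 at -0.88, Naip5 at 0.42, Naip2 at 0.30, Birc6 at -0.26 and Birc5 at 0.25 were the genes that the rule names.

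The p53 list, with Trp53, a known activator of Bax, Bbc3 and Pmaip1, and other targets of it, had 13 of 19 tested genes above 0 (22 listed, median 0.12). Trp53 itself was at 111 ± 39.0 CPM in Mll1-/- and 69.6 ± 1.79 CPM in Mll1+/- (log2 fold change 0.67, SE 0.22, edgeR adjusted p 0.424). Cdkn1a, the p21 inhibitor of the cell cycle, was at 21.6 ± 8.44 CPM and 10.4 ± 3.44 CPM (1.05, SE 0.33, adjusted p 0.417). In either gene the genotypes did not overlap, and these 2 were the genes of the list with an unadjusted p under 0.05. The genotypes of Ccng1 did not overlap either, in the opposite direction (19.1 to 51.1 CPM in Mll1-/- and 51.7 to 63.4 CPM in Mll1+/-, -0.54, adjusted p 0.612). Eda2r, Zmat3 and Trp53inp1 had the most negative values of the list (-1.35, -1.31 and -1.09), with SE of 1.46, 0.77 and 0.87 and overlapping genotypes. Eda2r was at 0 CPM in Mll1-/- replicates 3 and 4, and Zmat3 at 0.108 CPM in Mll1-/- replicate 3. Trp53inp1 was at 0.216 CPM in Mll1-/- replicate 3 against 22 to 30.4 CPM in the other 3. Ccng1, Eda2r, Zmat3 and Trp53inp1 were named after their values were seen. Plk2 and Gdf15 were at 0.89 and 0.80, and the abundant Rps27l and Btg2 at -0.20 and 0.05.

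In the list of stress-induced transcription (9 of 10 tested, 7 above 0, median 0.28), Ppp1r15a, which encodes Gadd34, was at 37.0 ± 21.5 CPM in Mll1-/- and 14.7 ± 2.53 CPM in Mll1+/- without overlap (1.33, SE 0.37, edgeR adjusted p 0.339), and Atf3 was at 216 ± 80.5 CPM and 117 ± 24.2 CPM (0.89, SE 0.27, adjusted p 0.384). Atf4, Trib3 and Hspa5 were at 0.28, 1.44 and 0.25 (SE 0.13, 0.96 and 0.26). Trib3 rested on 1 to 34 counts per library, with differences of -0.17 and 2.70 within the lower and the higher animal numbers. Tnfsf10 is also known as a gene induced by interferon. All 15 interferon response genes were tested and 15 of 15 had a log2 fold change above 0 in the fit of all 8 libraries (median 0.61), opposite in sign to Tnfsf10, and 5 had an unadjusted p under 0.05. Within the lower animal numbers 15 of 15 were above 0 (median difference 1.25), but within the higher numbers only 7 were above and 8 below (median -0.10). The median was 0.31 without Mll1-/- replicate 1 and 0.29 with the Xist covariate. Those with the smallest p included Oas1a at 37.6 ± 7.91 CPM in Mll1-/- and 18.5 ± 4.98 CPM in Mll1+/- (1.02, SE 0.24, adjusted p 0.243), Irf7 at 0.93 (adjusted p 0.296), Ifit3 at 2.25, Usp18 at 1.76 and Irf9 at 0.68, and Irf1 was at 0.16.

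**Figure D5:**
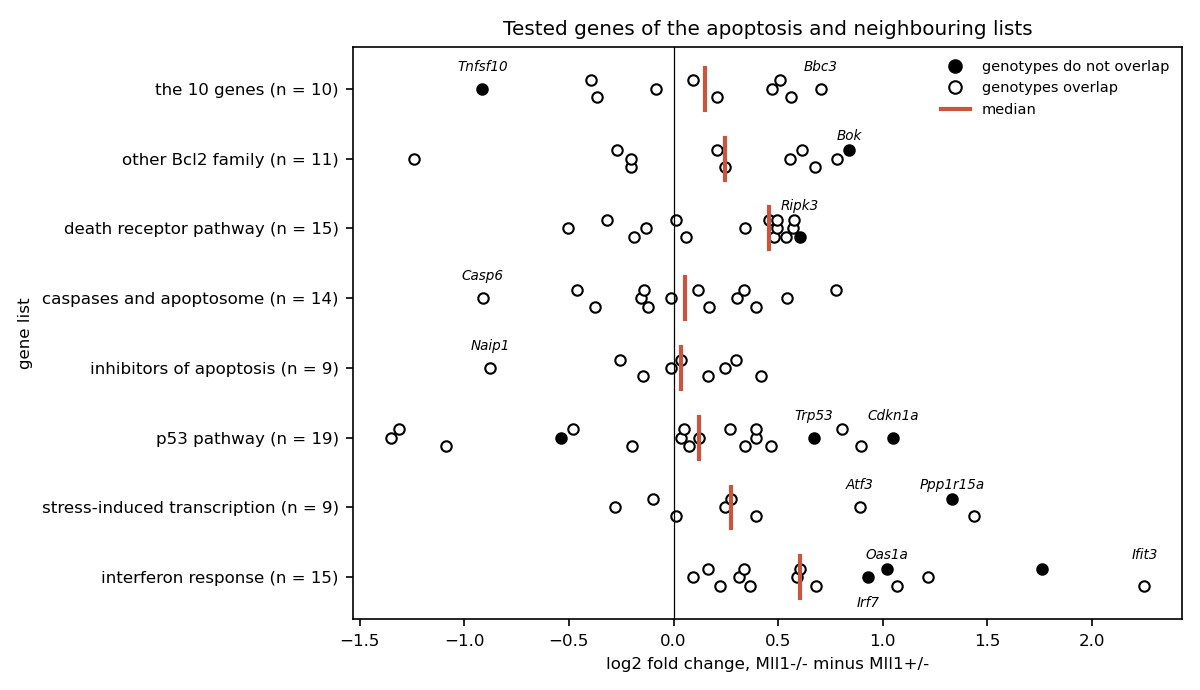
Log2 fold change (Mll1-/- minus Mll1+/-, x axis) of every tested gene of the lists on the y axis; filled points are genes whose genotypes do not overlap, and red lines are medians. Tnfsf10 and Casp6 are both at -0.91, and the 15 interferon response genes lie above 0 in this fit of all 8 libraries with a median of 0.61, though 8 of the 15 were below 0 among mice of the higher animal numbers.

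In bulk libraries, fewer cells of a type and less RNA per cell cannot be told apart. Markers of other cells were therefore summed per library beside the Tnfsf10 values. The 16 leukocyte genes summed to 4.17 to 15.2 CPM in Mll1-/- and 13.7 to 24.6 CPM in Mll1+/-. Ptprc (CD45) was at 0 to 0.131 CPM in Mll1-/- and 0.211 to 0.957 CPM in Mll1+/-, while Cd68, Lyz2 and Itgae were at -0.75, -0.90 and 0.97 on the log2 scale. Cells were stained for CD45 in the sort.

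The Lgr5 stem cell list (11 genes) summed to 11952 to 18547 CPM in Mll1-/- and 24025 to 28695 CPM in Mll1+/-, without overlap. Most of this sum was Olfm4, with a log2 fold change of -0.77 (edgeR adjusted p 0.200). Slc12a2 was at -0.87, whereas Lgr5 was at -0.06, Axin2 at 0.44 and Znrf3 at 0.48. Of the 11 genes 7 were below 0 and 4 above (median -0.06). In the edgeR fit 2 were lower and 1 higher at an unadjusted p under 0.05. The 10 enterocyte genes summed to 300 to 321 CPM and 378 to 468 CPM, and Fabp2, Apoa1, Anpep, Fabp1 and Vil1 were at -0.93, -1.16, -1.27, -2.41 and 0.42. For the 9 Paneth genes the sums were 1570 to 5060 CPM and 3130 to 4885 CPM, with Mmp7, Defa17, Defa24, Itln1 and Pla2g2a at 1.04, -1.72, -1.28, -1.01 and 0.64, and for the 8 goblet genes they were 688 to 1259 CPM and 607 to 806 CPM, with Guca2a, Muc2, Agr2, Zg16 and Spink4 at 1.89, 1.94, 0.93, -4.03 and -0.54. The stroma and vessel list (10 genes) was at 50.2 to 122 CPM and 6.33 to 12 CPM, almost all of it Vim in Mll1-/- (72.2 ± 33.5 CPM against 3.24 ± 2.19 CPM, adjusted p 0.108), with Pecam1 at -0.02. Of its other 8 genes, Col1a2 (1.48 and 1.25 CPM in Mll1-/- replicates 1 and 4) and Dcn (1.27 CPM in Mll1-/- replicate 2) exceeded 1 CPM in some Mll1-/- libraries, and the other 6 were below 1 CPM throughout. The part of these shifts in the values of Tnfsf10 was not tested.

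Jun, Junb, Ier2, Egr1 and Fos, immediate early genes that dissociation can induce, were at 0.48, 0.63, 0.62, 0.36 and 0.28 on the log2 scale, and their list of 13 genes had a median of 0.15. Their part in the values of the apoptosis genes was not tested.

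The genes most like each of the 10 in pattern were taken by the Pearson correlation of log2 CPM over the 8 libraries, which share their depth and the libraries that stand apart, and they are a description only. Closest to Tnfsf10 were Ccbe1 (r = 0.99), Slc12a2 (0.97) and Rfxap (0.96). Slc12a2, a chloride cotransporter of crypt cells and a gene of the Lgr5 stem cell list, was at 1418 ± 291 CPM in Mll1-/- and 2596 ± 331 CPM in Mll1+/-. Its log2 fold change was -0.87 (edgeR adjusted p 0.151). The genotypes did not overlap in any of the 3 genes, which follows largely from their choice by correlation with Tnfsf10. Closest to Bak1 were Gbp9 (0.97), A130010J15Rik (0.95) and Gsta4 (0.95). For Bax they included Ctnnbl1 and Tmem186 (0.97 each), for Mcl1 Prox1os, Zfyve16 and Mrgbp (0.98 to 0.99), and for Bcl2l1 Tysnd1, Rpap1 and Gm14198 (0.97 to 0.98). Bcl2 was closest to Gm37534, Ica1 and Gm45422 (0.93 to 0.95), Bbc3 to Mcm10, Gm6155 and Dhx57 (0.95 to 0.96), Pmaip1 to Gm22634, Gm8876 and Lbh (0.91 to 0.92), Bid to Gm8577, 4933417G07Rik and Hmgb3 (0.97 to 0.99), and Tnfrsf10b to Sf3b6, Asap2 and Rps2-ps10 (0.96). Among the 10 genes themselves the highest correlation was that of Bcl2 with Bcl2l1 (0.80) and the lowest that of Bcl2l1 with Tnfsf10 (-0.73).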

How the data were processed

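Smart-seq2 libraries, without molecular identifiers, of 8 mice were analysed. The study describes their amplification from small pools of sorted cells. The part of this low input in low or absent counts was not tested. Reads were mapped by the authors to mm10 (GSNAP) and those with a unique position were counted per Ensembl gene with featureCounts 1.6.3 without strand. The authors deposited these raw counts with the exonic length in bases. Reads overlapping more than 1 gene were not counted. The authors also deposited normalized signal, which is the counts divided by DESeq2 1.22.2 size factors (0.811 to 1.17 as recovered from the values) and was used here only to find the genes. Spike-in rows (92, with 40 counts in all libraries together) were left out. Groups came from the genotype in the sample characteristics, and the columns of counts were matched by the sample titles.

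Counts were filtered with filterByExpr (at least 10 counts, 15 in total), scaled by TMM and compared with the robust quasi-likelihood test of edgeR 4.0.16 in R 4.3.3, two-sided, with the genotype as the only term. p-values were adjusted by Benjamini-Hochberg over 16445 genes, and genes were called under 0.1. SE are the log2 fold change divided by the root of F. The common biological coefficient of variation was 0.435. Log2 CPM used a prior count of 2. Alternatives were DESeq2 1.42.0 without a prior, limma-voom 3.58.1 with quality weights, other scalings and filters, a block of the 2 ranges of animal numbers, a covariate of Xist above Y-linked transcripts, and each library left out. The edgeR, DESeq2 and limma-voom functions were run, in their main settings only, on simulated counts with less spread than these data. That run checks neither the other settings nor the tests at the spread found here.

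The 10 genes and the lists were chosen with earlier results of these data known. Named genes are the 10, Kmt2a, up to 4 genes of the smallest p and the 2 most abundant of each list, and the 3 genes of highest correlation, of which 1 is not reported here; other markers were named after their values were seen, as checks of cell types. Promoters are of RefSeq (GRCm38.p6), and exon overlap and shared words of 31 bases were computed from GENCODE transcripts (GRCm38). Plots were drawn with matplotlib 3.10.9. No pair of libraries of a genotype agreed within sampling noise (chi-square per gene at least 28.3).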

Additional observations from a re-analysis of the deposited data

Results flagged for a closer look

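In 10 of 94 groups of 4 libraries (47 genes, the 10 genes and the named genes of the apoptosis, p53, stress and interferon lists), 1 library lay farther from the others than Dixon's 95% limit, where chance gives about 1 in 20. Of the 10 genes it was Bbc3, at 2.89 CPM in Mll1-/- replicate 4 against 1.41 to 1.65 CPM in the other 3. Mll1-/- replicate 3 was high in Bad (43.0 CPM against 13.3 to 14.1), Bcl2l14 (81.1 against 46.4 to 50.1), Diablo (24.8 against 7.82 to 8.93) and Hspa5 (921 against 407 to 488). Mll1-/- replicate 2 was high in Birc5 (213 CPM against 167 to 174) and Mll1-/- replicate 4 in Cdkn1a (34.1 against 16.2 to 19.2). Among Mll1+/- libraries, Bcl2l14 was low in replicate 3 (53.3 CPM against 68.2 to 69.4), Apaf1 high in replicate 4 (48.2 against 24.9 to 26.1) and Trib3 high in replicate 1 (0.898 against 0.0646 to 0.141). What sets these libraries apart was not tested.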

How the results depend on the processing

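The number of genes called was 14 with DESeq2 size factors as well, 8 with upper quartile scaling, 47 with no filter beyond 1 count, 34 with 10 or more counts in each library, 406 with DESeq2, 103 with limma-voom, and 0 with the block of animal numbers or with the Xist covariate in edgeR (1642 and 1610 genes at an unadjusted p under 0.05). Without 1 library it was 0 to 45, with 2 without Mll1-/- replicate 1, 45 without Mll1-/- replicate 3 and 0 in the other 6. The number of the 10 genes called was 1 with DESeq2, which is Tnfsf10 (-0.91, adjusted p 0.00401), and 0 in the other 15 alternatives. The log2 fold change of Bid was -0.17 with the Xist covariate and between -0.056 and 0.29 without 1 library, and that of Mcl1 between -0.25 and 0.12. Without 1 library, Tnfrsf10b lay between -0.59 and -0.10, Pmaip1 between -0.58 and -0.08 and Bcl2 between 0.07 and 0.50. List medians moved too: without 1 library they were 0.14 to 0.48 for death receptors, 0.12 to 0.39 for other Bcl2 genes, 0.31 to 0.83 for interferon, -0.12 to 0.17 for caspases, -0.09 to 0.14 for inhibitors of apoptosis, 0.07 to 0.22 for p53 and 0.24 to 0.40 for stress. For comparison, the SD of the mean log2 CPM of these lists within a genotype was 0.15 to 0.56. The median of the stroma list, which rests on 2 tested genes, was 0.12 without a filter, -0.018 with 10 or more counts in each library, and 1.04 to 2.15 without 1 library. The leukocyte median was -1.01 to 0.31 without 1 library, and the immediate early median 0.16 to 0.34. The cause of these shifts was not tested. No paired analysis was possible because the sample titles give no replicate numbers shared by the genotypes. Bbc3, Bak1 and Tnfrsf10b rest on 6 to 89 counts per library and have the largest SE of the 10 genes (0.33 to 0.55 on the log2 scale). The part of depth in these SE was not tested.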
